A study of Mus musculus with 6 samples.

Results

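The DNA methylation machinery was followed here through 6 genes, chosen by name with earlier results of these data known. They were the de novo group *Dnmt3a*, *Dnmt3b* and *Dnmt3l*, and the maintenance group *Dnmt1*, *Uhrf1* and *Uhrf2*. Of these, 5 genes had annotated probes, 11 probes in all, among 9046 genes with an annotated probe. No probe carried the symbol *Dnmt3a* in the annotation used here, and this gene was not analysed. The samples were 3 *Prdm14*-deficient (knockout, here also called null) and 3 wild-type control mouse ES cell samples of C57BL/6 background, hybridized to Illumina Mouse WG-6 BeadChips, on which beads carrying a probe report the amount of a labelled transcript. Both genotypes were kept in 2i, a medium with inhibitors of MEK and of glycogen synthase kinase-3, with no further treatment. The *Prdm14*-deficient ES cells had been derived in 2i. According to the labels, replicates came from consecutive passages, and no source used here gives the number of lines, so the p-values measure only the spread between these samples.

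DNA methylation in mammals is set by de novo enzymes and copied by a maintenance enzyme. DNMT3B is a de novo methyltransferase, and DNMT3L is a relative without catalytic activity of its own that binds the de novo enzymes and stimulates them. DNMT1 restores methylation on the new strand after replication and is brought to half-methylated sites by UHRF1, a RING finger protein that reads them. UHRF2 is its paralogue. Mouse ES cells kept in 2i are known for a low level of DNA methylation.

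The promoters of the genes that changed, *Dnmt3b* and *Dnmt3l*, are shown because both moved in the same direction while their upstream sequences differ in CpG content. CpG is the dinucleotide at which active DNA methyltransferases such as DNMT3B add methylation. The sequences are those of RefSeq on build GRCm38.p6, plus strand, 5′ to 3′, ending before the annotated start of the gene. For *Dnmt3l* the most upstream of its annotated starts was taken, and which start these cells use was not measured. Capitals mark each CpG. The *Dnmt3b* stretch is chr2:153649199-153649410 and holds 16 CpG in 212 bases, and the *Dnmt3l* stretch is chr10:78042037-78042286 and holds 5 in 250 bases.
Dnmt3b: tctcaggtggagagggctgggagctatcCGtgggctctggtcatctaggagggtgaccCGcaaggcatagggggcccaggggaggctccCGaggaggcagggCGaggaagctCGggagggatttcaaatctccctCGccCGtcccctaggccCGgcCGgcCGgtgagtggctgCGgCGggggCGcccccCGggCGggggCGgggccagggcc
Dnmt3l: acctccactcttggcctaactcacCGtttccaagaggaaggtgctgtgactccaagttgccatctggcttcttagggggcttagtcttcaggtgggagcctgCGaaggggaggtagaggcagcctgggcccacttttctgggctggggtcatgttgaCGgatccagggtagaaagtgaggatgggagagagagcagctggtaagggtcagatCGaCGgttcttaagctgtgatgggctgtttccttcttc

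RefSeq gave 13 promoter windows for the 6 genes, each running from 250 bases before to 50 bases after a start. All 6 genes matched. The window of *Dnmt3b* held 30 CpG, against 6, 4 and 3 in the 3 windows of *Dnmt3l* and a median of 7 over all 32851 windows. The windows of the maintenance genes held 33, 12 and 2 CpG for *Dnmt1*, 33 and 12 for *Uhrf1* and 28 for *Uhrf2*, and those of *Dnmt3a* 47, 46 and 18. The PRDM14 motif GGTCTCTAA was searched on both strands and was in 0 of the 13 windows. It was in 84 of all windows, or 0.256%. This says only that these letters are not in these windows.

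The deposited signals covered 45281 probes, with array medians of 63.5 to 74.8 in *Prdm14*-null and 56.8 to 80.6 in wild-type cells, and 13456 to 14901 probes per array were above background at a detection p under 0.01. After background correction, an offset of 16 was added, quantiles were matched between arrays and log2 was taken, so that 1 unit is a doubling of the corrected signal plus offset. For dim probes the offset compresses changes, and 1 unit stands for more than a doubling of the signal itself. The 14436 probes detected on at least 3 of 6 arrays were compared with limma, and a probe was called at an adjusted p under 0.01, the threshold of the study. The targeted gene followed the labels: *Prdm14* had on its brighter probe log2 signals of 5.03, 5.13 and 4.86 on the null arrays, none above background, against 8.49, 8.51 and 8.42 on the wild-type arrays, and was at least 6.62-fold lower (adjusted p = 2.46e-07). This bound sets the wild-type mean against the lowest detected signal of each null array, or the probe's own signal where that was higher. The dimmer *Prdm14* probe was likewise above background on 0 null and 3 wild-type arrays, and at least 2.43-fold lower. Where the probes lie relative to the deleted part of *Prdm14* is not stated in the sources used.

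*Dnmt3b* and *Dnmt3l*, the measured genes of the de novo group, rose in *Prdm14*-deficient ES cells on every probe. No probe of the maintenance genes passed the test. All 11 probes were above background on the 6 arrays. Of the 4 de novo probes, 4 were higher and none was lower, with log2 fold changes of 0.95 to 1.61, and of the 7 maintenance probes 0 were called (limma, 0 also at an unadjusted p under 0.05), with log2 fold changes of -0.21 to 0.15. Among all tested probes 13.8% were called, 6.19% as higher and 7.56% as lower. The study had reported higher *Dnmt3b* and *Dnmt3l* from these same samples, so their rise here is not independent evidence. The signals do not separate a change in the share of cells that express a gene from a change in the RNA per cell.

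**Figure D1:**
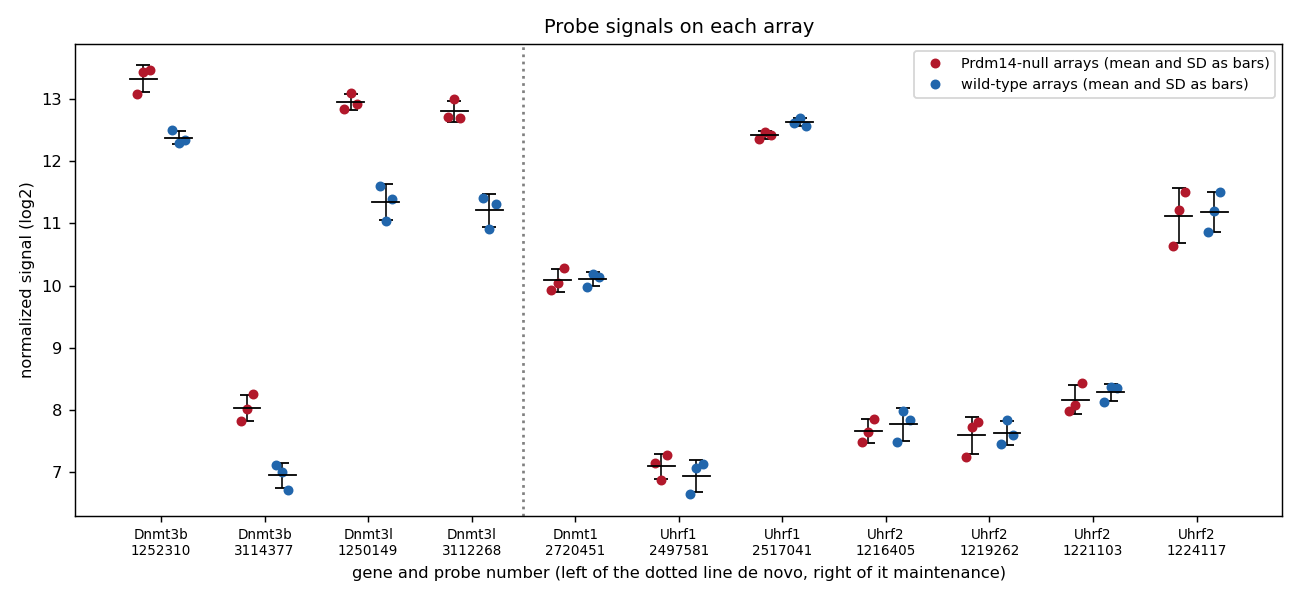
Normalized log2 signal of each of the 11 probes on the 3 *Prdm14*-null arrays (red) and the 3 wild-type arrays (blue), with the mean and SD in black. Red lies above blue without overlap for the 4 probes of *Dnmt3b* and *Dnmt3l*, and blue lies above red without overlap for the brighter probe of *Uhrf1*. Among all 14436 tested probes, 22.8% had every null array above every wild-type array, and 19.5% had every null array below.

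*Dnmt3l*, the cofactor, showed the larger rise of the de novo genes. Its brighter probe, ILMN_1250149, had deposited signals of 8256, 8736 and 7557 in *Prdm14*-null cells, against 2294, 2139 and 3392 in wild-type cells. After normalization these were log2 signals of 12.84, 13.09 and 12.92 in null cells and 11.60, 11.03 and 11.39 in wild-type cells. The lowest null array lay above the highest wild-type array by more than the range within either genotype. The log2 fold change was 1.61 (standard error 0.15, adjusted p = 0.000107 from limma), a 3.05-fold rise with a 95% interval of 2.40 to 3.86. It was the 65th largest rise among the 14436 tested probes.

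The other *Dnmt3l* probe, ILMN_3112268, is annotated to another RefSeq transcript of the gene. It had log2 signals of 12.70, 12.99 and 12.69 in null cells, against 11.40, 10.91 and 11.31 in wild-type cells, again without overlap. Its log2 fold change of 1.58, with a standard error of 0.15 and an adjusted p of 0.000111, differed by 0.02 from that of the brighter probe. Measured within each array, the difference between the probes was 0.10 to 0.23 in null and 0.08 to 0.20 in wild-type cells, so these ranges overlapped (exact permutation test, two-sided, p = 0.6).

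*Dnmt3b*, the de novo enzyme, rose by about 1 log2 unit on both of its probes. On the brighter probe, ILMN_1252310, the deposited signals were 9666, 11049 and 11124 in *Prdm14*-null cells, against 4323, 4999 and 6198 in wild-type cells. The log2 signals were 13.08, 13.43 and 13.45 in null cells and 12.50, 12.29 and 12.33 in wild-type cells, without overlap. The log2 fold change was 0.95 (standard error 0.13, adjusted p = 0.00075), a 1.93-fold rise with a 95% interval of 1.58 to 2.36.

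The dimmer *Dnmt3b* probe, ILMN_3114377, had log2 signals of 7.83, 8.01 and 8.25 in null cells, against 7.13, 7.01 and 6.72 in wild-type cells. Its log2 fold change was 1.08, with a standard error of 0.14 and an adjusted p of 0.000779 from limma. The size of this rise depended on the processing more than that of the brighter probe, being 0.63 with the authors' processed values (adjusted p = 0.000302), against 0.97 for the brighter probe on the same values. Within arrays, the bright probe exceeded the dim one by 5.20 to 5.42 in null and by 5.28 to 5.61 in wild-type cells, which overlap (exact permutation test, two-sided, p = 0.4).

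**Figure D2:**
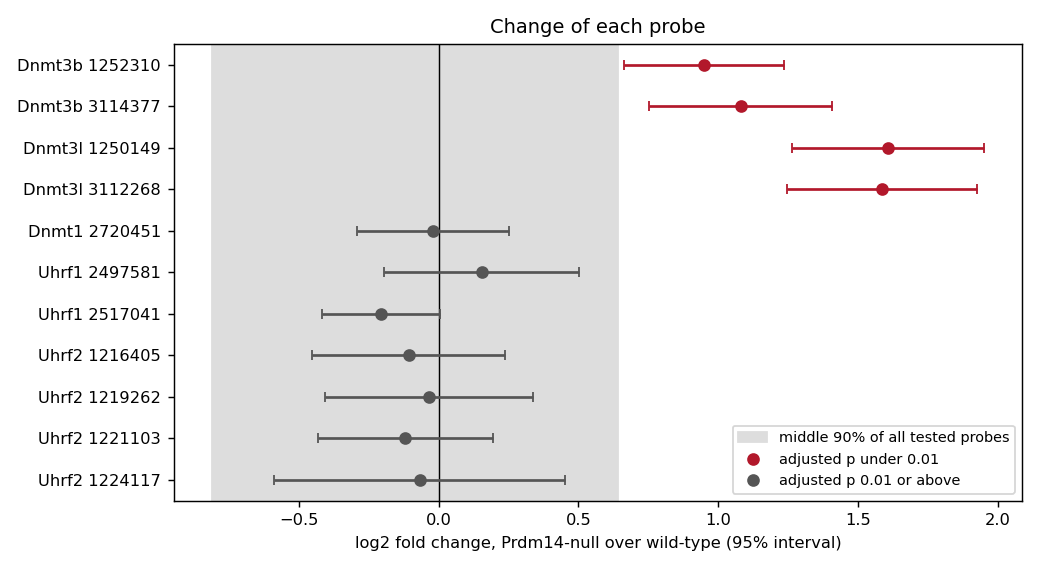
Log2 fold change of each probe, *Prdm14*-null over wild-type, with its 95% interval, red where the adjusted p was under 0.01. The grey band runs from the 5th to the 95th percentile of all tested probes, -0.81 to 0.64. The 4 intervals of *Dnmt3b* and *Dnmt3l* lie to the right of the band, and the 7 others include 0.

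*Dnmt1*, the maintenance methyltransferase, was read by 1 probe, ILMN_2720451. Its log2 signals were 9.92, 10.04 and 10.28 in *Prdm14*-null cells and 9.98, 10.19 and 10.14 in wild-type cells, so the genotypes overlapped. With a log2 fold change of -0.02, an adjusted p of 0.924 and a standard error of 0.12, the 95% interval was -0.29 to 0.25. This interval allows a fall to 0.82-fold or a rise to 1.19-fold, and the sign of so small a value turned with the scaling.

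*Uhrf1*, which guides DNMT1 to its sites, had a bright and a dim probe that pointed in opposite directions, neither of which passed. On the bright probe, ILMN_2517041, log2 signals were 12.35, 12.47 and 12.42 in null cells, against 12.60, 12.69 and 12.57 in wild-type cells. Each null array lay below each wild-type array, as was so for 19.5% of all tested probes, while each null array lay above each wild-type array for 22.8%. The log2 fold change was -0.21 (standard error 0.09, 95% interval -0.42 to 0.01, adjusted p = 0.143), and its adjusted p ranged from 0.0391 to 0.316 over the alternatives. On the dim probe, ILMN_2497581, it was 0.15 (standard error 0.15, 95% interval -0.20 to 0.50, adjusted p = 0.507), and the genotypes overlapped.

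*Uhrf2* was read by 4 probes, and on each of them the arrays of the genotypes overlapped. The brightest, ILMN_1224117, had log2 signals of 10.64, 11.21 and 11.51 in *Prdm14*-null cells and 10.86, 11.19 and 11.51 in wild-type cells, the widest spread between arrays of a genotype among the 11 probes. Its log2 fold change was -0.07 (standard error 0.23, 95% interval -0.59 to 0.45, adjusted p = 0.858). The 3 other probes gave -0.03, -0.11 and -0.12, with adjusted p of 0.902, 0.648 and 0.57. Over the 7 maintenance probes the widest bounds of the 95% intervals allow a rise of up to 1.42-fold and a fall to 0.665-fold, both from noisier probes than those of *Dnmt1* and the bright *Uhrf1* probe.

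Because de novo and maintenance genes were read on the same arrays, their difference on each array is not moved by a factor common to the whole array, though it does change somewhat with background correction and quantile matching. Levels of different probes are not comparable as amounts of RNA, so such differences are printed only to compare them between genotypes. They were computed for 6 pairs, after the values of the probes had been seen. *Dnmt3l* exceeded *Dnmt1* by 2.92, 3.05 and 2.64 log2 units in *Prdm14*-null cells, against 1.63, 0.84 and 1.26 in wild-type cells. For *Dnmt3b* over *Dnmt1* the differences were 3.16, 3.39 and 3.17 in null cells, against 2.52, 2.10 and 2.20 in wild-type cells. In each of the 6 pairs every difference in null cells exceeded every one in wild-type cells, with mean shifts of 0.97, 1.16 and 1.02 for *Dnmt3b* and 1.63, 1.81 and 1.68 for *Dnmt3l* over *Dnmt1*, *Uhrf1* and *Uhrf2*. The pairs share probes and arrays, and each mean shift is the difference of log2 fold changes given above, so they are not separate observations. On the deposited signals without any correction the shifts over *Dnmt1* were 0.95 for *Dnmt3b* and 1.58 for *Dnmt3l*. With 3 arrays against 3 the exact permutation test, two-sided, cannot go below p = 0.1, which is the value each pair gave, so none passes.

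**Figure D3:**
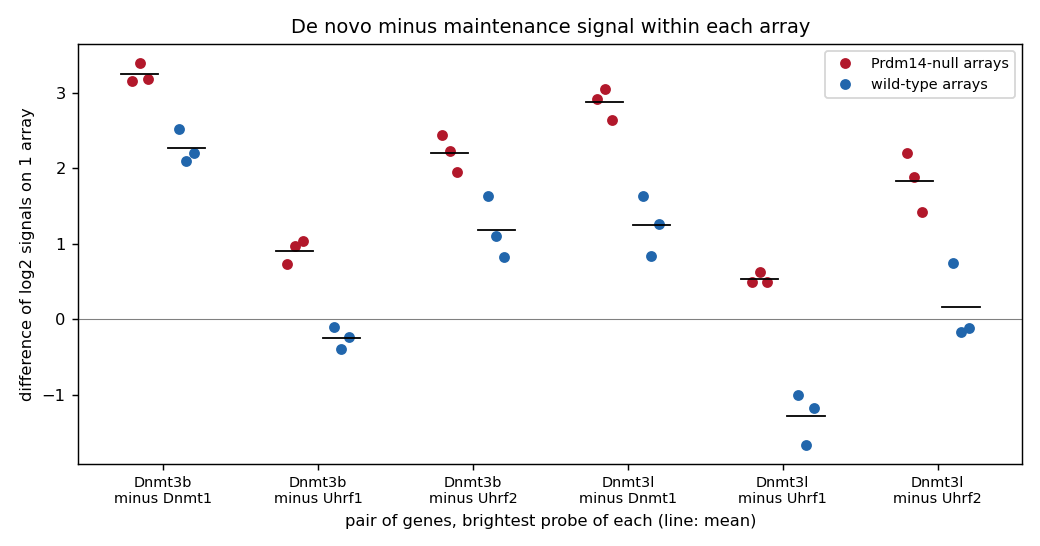
Difference of normalized log2 signals between a de novo and a maintenance gene on each array, brightest probe of each, for the 3 *Prdm14*-null arrays (red) and the 3 wild-type arrays (blue), with means as lines. In all 6 pairs the red points lie above the blue, and the gap is wider for *Dnmt3l* than for *Dnmt3b*.

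The rise of *Dnmt3l* was also set against that of *Dnmt3b* on each array. *Dnmt3l* lay below *Dnmt3b* by 0.24, 0.34 and 0.53 log2 units on the null arrays and by 0.89, 1.26 and 0.94 on the wild-type arrays. The mean shift was 0.66 (exact permutation test, two-sided, p = 0.1, the smallest that 3 against 3 arrays allow), which does not pass. The 95% interval of the log2 fold change on the brighter *Dnmt3l* probe, 1.26 to 1.95, lay just above that on the brighter *Dnmt3b* probe, 0.66 to 1.24, and overlapped that on the dimmer *Dnmt3b* probe, 0.75 to 1.41.

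**Figure D4:**
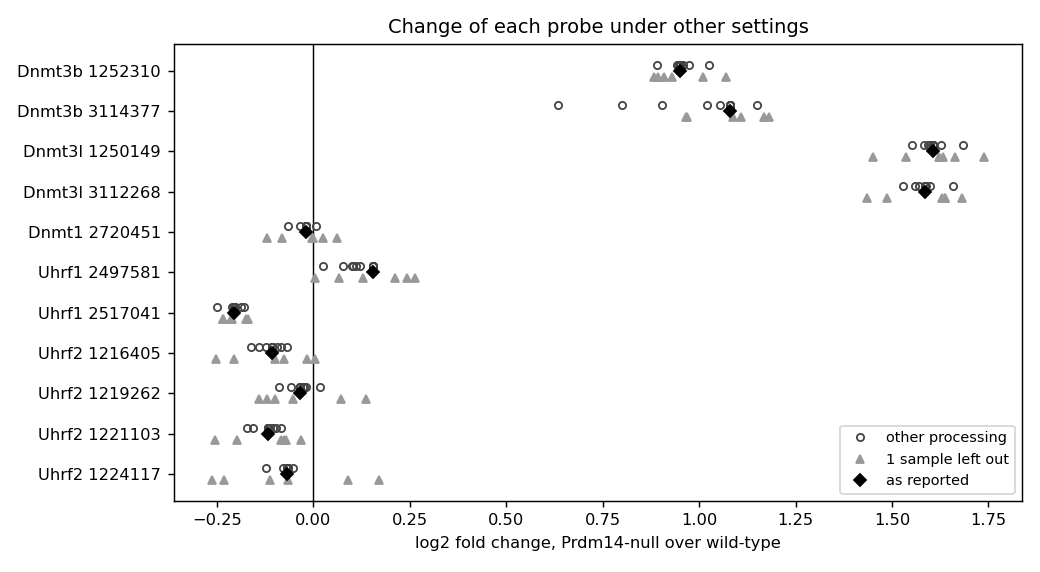
Log2 fold change of each probe, *Prdm14*-null over wild-type, as reported (black diamonds), under other processing (open circles) and with 1 sample left out (grey triangles). The probes of *Dnmt3b* and *Dnmt3l* stay at 0.63 or more, and those of the maintenance genes lie between -0.26 and 0.26.

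Genes with profiles like those of the members were sought among 8338 other genes, by the root mean square difference of log2 values over the 6 arrays after each gene's mean was removed. The 6 arrays share the genotype contrast, so likeness mostly means a change of the same size. Closest to *Dnmt3l* were *Tfap2a* (difference 0.10), a transcription factor gene, *Ido1* (0.12), which encodes a tryptophan-degrading enzyme, and the collagen gene *Col4a2* (0.12). Closest to *Dnmt3b* were *Timm21* (0.05), a mitochondrial import gene, *Plpp2* (0.07), a lipid phosphatase gene, and *Arhgef15* (0.07). For *Uhrf1* they were *Ints13* (0.02), *Tk1* (0.02), the thymidine kinase gene of dividing cells, and *Flot2* (0.03). *Dnmt1* was most like *Thumpd3*, *Aplp2* and *Sltm* (0.04 each), and *Uhrf2* like *Lypd6* (0.09), *Trim34a* (0.09) and *Firre* (0.12).

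Of the other genes of the pathway, counted by the brightest probe of each gene, partners and readers of DNA methylation were mostly not called. Over all 8343 genes 6.69% were called higher and 8.4% lower, with a median log2 fold change of 0.02. Of 20 listed partners and readers 14 were tested, of which 1 was higher, 2 were lower and 11 did not pass, with a median of 0.21 and 6 at an unadjusted p under 0.05. The gene that was higher, *Ehmt2*, codes for G9a, an H3K9 methyltransferase, and had a log2 fold change of 0.58 (adjusted p = 0.00332). With null sample 2, null sample 3 or wild-type sample 2 left out, no gene of the list was called higher. *Dppa3* (Stella), a maternal factor known to protect methylation in the zygote, fell by 1.02 (adjusted p = 0.00167), and *Mbd2*, which encodes a methyl-CpG binding protein, fell by 0.92 (adjusted p = 0.000785).

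Of 10 DNA demethylation factors 7 were tested and 0 were called (limma, 0 also at an unadjusted p under 0.05), with a median of -0.09. *Tet1*, which encodes an enzyme that oxidizes methylcytosine, gave -0.12 (95% interval -0.35 to 0.10, adjusted p = 0.414), and *Tdg*, which encodes the glycosylase that removes the oxidized bases, gave 0.14 (95% interval -0.09 to 0.37, adjusted p = 0.337). Of 10 genes that supply the methyl donor 7 were tested. *Shmt1*, the cytosolic serine hydroxymethyltransferase gene of the folate cycle, fell by 0.73 (adjusted p = 0.00224), none was higher, and the 6 others did not pass (median of the list -0.10, 3 genes at an unadjusted p under 0.05).

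Maintenance genes are known to follow DNA replication, so a list of S phase and proliferation genes was set beside them. Of 19 such genes 15 were tested, with a median of 0.01, and 14 did not pass (3 genes were at an unadjusted p under 0.05). *E2f1*, a transcription factor gene of S phase entry, fell by 0.51 (standard error 0.10, adjusted p = 0.00772), but no gene of the list was called in any of the 6 fits with 1 sample left out. *Pcna*, the clamp of the replication fork, gave -0.14 (adjusted p = 0.677) and *Mcm2*, of the replicative helicase, 0.02 (adjusted p = 0.876).

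Among germline genes with promoters known to be methylated in somatic cells, those that were called fell. Of 20 listed genes 7 were tested, 5 were lower, none was higher and 2 did not pass (median -1.98). The homeobox genes *Rhox5*, *Rhox9* and *Rhox6* fell by 4.47, 3.42 and 2.37 on the log2 scale, though probes of this family may share signal and *Rhox6* was above background on only 2 null arrays. *Dazl*, which encodes a germ cell RNA-binding protein, fell by 1.98 (adjusted p = 6.49e-05), and *Tex19.2*, named after its value was seen, by 0.62 (adjusted p = 0.00772). With 1 sample left out, 4 genes of the list were called lower in each fit except that without wild-type sample 1, where 5 were. *Piwil2* gave -0.72 (adjusted p = 0.0341) and *Tex19.1* -0.18 (adjusted p = 0.198). The study listed *Tex19.1* among the repressed genes, but its brightest probe did not pass here. The study had named several of these genes from these same samples, so their common direction is not independent evidence, and DNA methylation itself was not measured on these arrays.

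**Figure D5:**
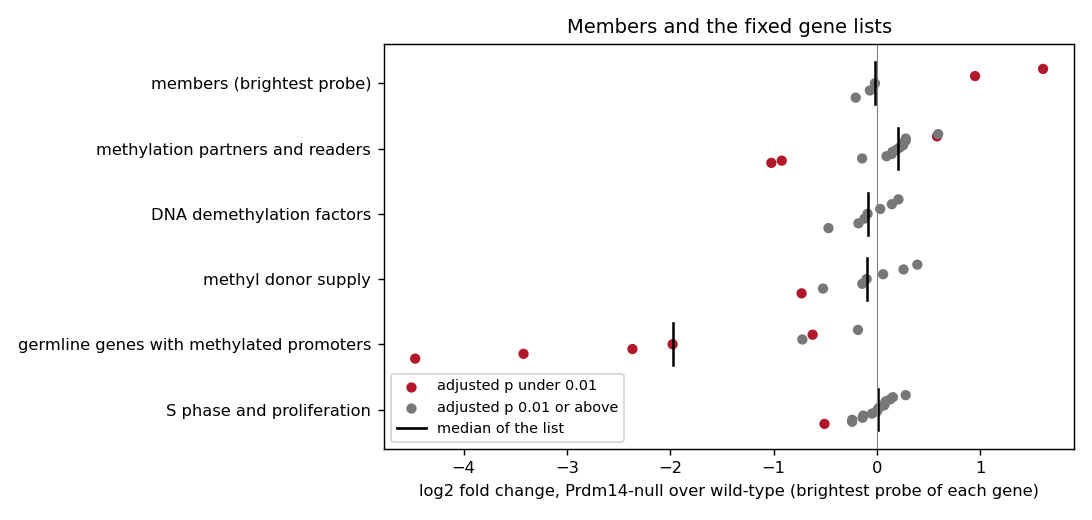
Log2 fold change, *Prdm14*-null over wild-type, of the brightest probe of each gene, for the 5 measured members and for the fixed gene lists, red where the adjusted p was under 0.01, with the median of each list as a line. *Dnmt3b* and *Dnmt3l* are the red points of the top line, and the germline list, with a median of -1.98, lies to the left.

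Markers of cell identity were read in the same way. Of 9 ES cell markers 9 were tested and above background on all arrays, with summed normalized signals of 53984 to 56346 in *Prdm14*-null and 54205 to 56018 in wild-type cells, and 1, *Sox2*, was higher (0.54, adjusted p = 0.00421), though with either null sample 2 or 3, or wild-type sample 1 or 3, left out no marker was called. Markers of the primed epiblast, a later state known for high *Dnmt3b*, were in part higher. Of 6 such markers 5 were tested, of which 2 were higher, none was lower and 3 did not pass, with summed signals of 2389 to 3332 in null and 750 to 1163 in wild-type cells. *Otx2* rose by 2.99, but was above background on only 1 wild-type array, so the size of this rise is uncertain. *Lefty1* rose by 1.91, while *Cldn6* (0.86), *Zic2* (0.59) and *Pou3f1* (-0.28) did not pass. With null sample 1 or null sample 3 left out, 1 marker was called higher. The part of this state in the rise of *Dnmt3b* and *Dnmt3l* was not tested.

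Other cell types were covered more thinly. Of 9 fibroblast markers 2 were tested, with summed signals of 878 to 1558 in null and 1385 to 1586 in wild-type cells: *Thy1* was higher and above background on no wild-type array, and *Vim* gave -0.48 (adjusted p = 0.0914). With null sample 3 left out, 1 fibroblast marker was called lower. The collagen genes that define fibroblasts had no annotated probe and were not analysed here. Of 7 primitive endoderm markers 1 was tested, *Dab2* (1.10, adjusted p = 0.0586), with signals of 91.4 to 296.3 in null and 68.1 to 105.4 in wild-type cells. It was called higher with null sample 3 left out. Of 6 trophectoderm markers 2 were tested, with summed signals of 302.2 to 436.1 in null and 393.6 to 592.4 in wild-type cells, of which *Krt7* was lower and above background on no null array, a call not made with null sample 1 or wild-type sample 2 left out. The part of such cells in the results was not tested.

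The genotypes also differed in a sex-linked gene. The Y-linked *Eif2s3y* had log2 signals of 8.60, 8.64 and 8.42 on the null arrays, all above background, and of 4.82 to 5.29 on the wild-type arrays, none above background, at least 7.46-fold higher in null cells (adjusted p = 9.55e-07). Another Y-linked gene, *Uty*, was above background on all 6 arrays with a log2 fold change of 0.31 (adjusted p = 0.132). Its log2 signals were low, 5.92 to 6.41 on the null and 5.80 to 6.00 on the wild-type arrays. On wild-type sample 1 the deposited detection p was 0.00855, close to the threshold of 0.01. The 270 tested X-linked genes had a median log2 fold change of 0.12, with 36 higher (13.3%) and 28 lower (10.4%). Over all 8343 genes these shares were 6.69% and 8.4%. The number of X chromosomes is itself known to go with the level of DNA methylation in mouse ES cells, and here the loss of *Prdm14* and the Y-linked signal cannot be told apart. The chromosomes of *Dnmt3b* and *Dnmt3l*, 2 and 10, had median log2 fold changes of 0.06 and 0.05. Some other chromosomes were shifted more. Chromosome 11, with 724 genes, had a median of -0.14, with 14.2% of genes called lower and 1.93% higher. Chromosome 15, with 336 genes, had a median of -0.18, with 13.7% lower and 3.27% higher. These shifts cannot be told apart from the loss of *Prdm14*, and their cause was not tested. With each chromosome's median removed, a setting chosen after seeing the data, the bright probe of *Dnmt3b* rose by 0.89 (adjusted p = 0.0011) and that of *Dnmt3l* by 1.55 (adjusted p = 0.000132).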

How the data were processed

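Gene expression was measured in 3 *Prdm14*-null and 3 wild-type ES cell samples, 1 array each, and groups and replicate numbers were read from the sample titles. The authors deposited raw signal intensities for all probes. Their deposited detection p-values compare each probe with negative control beads. The authors' processed log2 values of 15961 probes, made with lumi according to the submitters' processing notes (version and settings not given in the sources used here), served as an alternative.

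Intensities were read into R 4.3.3 and corrected for background with nec of limma 3.58.1, which fits a normal-exponential model and here inferred the negative controls through detection p-values. Addition of 16, quantile normalization and log2 followed. The 14436 probes with a detection p under 0.01 on 3 or more arrays were tested with lmFit and eBayes, genotype as the only term, and Benjamini-Hochberg adjustment over all of them. The procedure was tested on simulated data.

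Probes were named from GEO's platform annotation, with symbols updated through RefSeq (GRCm38.p6). Members and lists were chosen with earlier results of these data known. From these same samples the study had already named *Dnmt3b*, *Dnmt3l*, *Ehmt2*, *Dppa3* and *Lefty1*, among others. Named are *Prdm14*, all member probes, up to 4 called genes of each list with the largest changes, the 3 nearest profiles of each member, and further genes after their values were seen. The sequences of the probes and proteins were not used here. The number of arrays limits the precision.

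Same-numbered samples of the genotypes did not deviate together from their group means, with correlations of -0.03, -0.06 and -0.12 across probes, so the numbers were not taken as pairs. Alternatives covered background, offset, scaling, processed values, probe filter, variance model, array weights, replicate block, threshold, averaging of probes and each sample left out.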

Additional observations from a re-analysis of the deposited data

How the results depend on the processing

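The 4 probes of *Dnmt3b* and *Dnmt3l* were called higher, and no member probe was called lower, under each of 18 alternative settings. Of these settings, the removal of chromosome medians was chosen after seeing the data. The threshold of 0.05 reuses the same fit and by construction keeps every call made at 0.01. The rises ranged from 0.88 to 1.07 and from 0.63 to 1.18 on the log2 scale for the probes of *Dnmt3b*, and from 1.45 to 1.74 and from 1.43 to 1.68 for those of *Dnmt3l*. The highest adjusted p was 0.00755, for the dim *Dnmt3b* probe without a filter on dim probes. Averaged over their probes, *Dnmt3b* rose by 1.01 and *Dnmt3l* by 1.60. No maintenance probe was called under any setting, and only signs near 0 turned: *Dnmt1* gave 0.0059 with median scaling and -0.12 to 0.061 with 1 sample left out, and the *Uhrf2* probe ILMN_1219262 gave 0.018 with array weights and -0.14 to 0.14. The *Uhrf2* probes ILMN_1216405 and ILMN_1224117 gave -0.25 to 0.0040 and -0.26 to 0.17 with 1 sample left out. Over all probes, 1851 were higher and 1818 lower at a threshold of 0.05, where more pass by construction. With 1 sample left out, and so fewer arrays, 475 to 699 were higher and 713 to 937 lower. The lowest counts, 475 and 713, came with null sample 2 left out, while leaving out wild-type sample 2 gave 562 higher probes and leaving out wild-type sample 3 gave 556. With a replicate block 663 probes were higher and 925 lower, against 894 and 1092 without it, and no member call changed. No sample correlated best with its own number. Signals near background limit the dim probes of *Dnmt3b* and *Uhrf1*, and 3 arrays per genotype limit the maintenance genes.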
